A study of Drosophila melanogaster with 249 samples.

Results

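The eye pigment genes described here were white (w, FBgn0003996), scarlet (st, FBgn0003515), brown (bw, FBgn0000241), vermilion (v, FBgn0003965) and cinnabar (cn, FBgn0000337), 5 of the 17142 genes counted in RNA-Seq libraries from fly heads. They were chosen by name, as the classical pigment genes, and w was the reason for the choice: its allele or a w+ marker differed among the stocks by design. In the annotation, w and v lie on the X chromosome, st on chromosome arm 3L, and bw and cn on the right arm of chromosome 2. All but 14 of the 249 libraries deposited were analysed, in 79 conditions, each from a pool of 10 heads of adults aged 5 days.

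The libraries came from flies heterozygous for 1 of 19 X chromosome deficiencies, Df(1)ED/w1118, or for 1 of 11 deficiencies of 3L, Df(3L)ED/+ in a w1118 stock, and from 3 kinds of flies with no deficiency. The last were OreR (w+/w+ or w+/Y), a wild-type laboratory strain, w1118/w+ heterozygotes, and w1118, the parental stock of the DrosDel deficiency collection. Every library but those of OreR carried w1118, a null allele of w, on at least 1 X chromosome. Both parents of the 3L deficiency flies carried it on every X, although the labels write the XX offspring as w1118/+. XX flies (97 libraries) were females and XY flies (39 libraries) males. The tra2 XX flies (96 libraries) had 2 X chromosomes and lacked transformer 2 function (Df(2R)trix/tra2B), which XX flies need for female somatic development, so they developed as males, and 3 tra2 XY libraries came from w1118 males of the same tra2 genotype. X deficiency lines had XX and tra2 XX libraries, 3L lines also XY, OreR only XX and XY, and w1118/w+ only XX and tra2 XX. Each condition had 3 libraries except w1118/w+ XX and Df(1)ED7331/+ XX, which had 2. The labels give no separate origin for the pools of a condition, so p-values of tests between conditions measure the spread between these pools. The fits over lines, which compare XX, XY and tra2 XX heads, instead sum the pools and rest on the spread between lines. In all other tests of averages over lines, the spread between lines does not enter the errors. The tra2 flies came out of additional crosses, and the study's methods write the tra2B chromosome with the alleles cn1 and bw1, so a tra2 fly could carry 1 mutant copy of cn and of bw. Each deficiency was 1 stock, so the deleted segment, the inserted marker and the rest of a stock's background cannot be told apart.

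The red-brown colour of the fly eye comes from 2 pigments. Brown ommochromes are made from tryptophan: v encodes tryptophan dioxygenase, the entry enzyme, cn encodes kynurenine monooxygenase, and the heme peroxidase gene cardinal (cd) acts late in the pathway. Red pteridines are made from GTP. Both need half-size ABC transporters of the ABCG family at the pigment granule: White pairs with Scarlet to carry ommochrome precursors and with Brown to carry pteridine precursors, so a fly without w has white eyes. DrosDel deficiencies were built from transposons that carry a w+ marker (mini-white), which is how their carriers are recognised by eye colour in a w1118 stock. Reads of a marker and of the gene at its own locus count alike for w.

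Libraries held between 667146 and 18679735 reads on genes, with a median of 7611689, and tra2 XX libraries were the shallowest as a group (median 5691607). All levels below are read counts divided by a size factor per library (normalized read counts), and a level does not compare 2 genes because it is not per length. In bulk heads, fewer cells of a type and less RNA per cell cannot be told apart. The 9 photoreceptor markers and the 5 markers of pigment and cone cells were detected in every group, as were those of neurons and muscle. The summed level of 2 ovary markers had a median of at most 2.253 in any group (up to 664.0 in 1 library of X lines in XX heads), and that of 3 markers of testis and accessory gland never exceeded 41.69. Calls are at an adjusted p (Benjamini-Hochberg) under 0.05 over all genes tested by the quasi-likelihood test of edgeR, and ± beside a log2 fold change is its standard error.

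In flies with no deficiency, w followed the allele. OreR XX heads had 110.4, 110.3 and 123.2 normalized read counts, w1118/w+ XX heads 75.9 and 72.5, and w1118 XX heads between 0.5 and 3.5. OreR XY heads had 102.9, 147.4 and 122.8, against at most 0.6 in w1118 XY heads. Among tra2 XX heads, w1118/w+ had 58.8, 49.1 and 39.8, against at most 1.3 in w1118. None of these groups overlapped within a class. Over the reads of a group, w was 67.2 times as high in OreR XX as in w1118 XX (95% exact interval 36.2 to 141, covering counting error only, from 409 reads against 10) and 43.5 times as high in w1118/w+ XX as in w1118 XX (23.3 to 91.7). The ratio of w1118/w+ tra2 XX to w1118 tra2 XX was 82.9 (28.0 to 406) and that of OreR XY to w1118 XY 371.5 (103 to 3073), the last 2 resting on 3 and 2 reads in w1118. With 2 copies of w+ in OreR XX and 1 in w1118/w+ XX, OreR was higher by 0.61 ± 0.59 on the log2 scale (adjusted p = 1.0), and 0.691% of all genes were called between these groups. This p does not show that 1 and 2 copies gave the same level, and the libraries themselves did not overlap (110.3 to 123.2 in OreR against 72.5 to 75.9 in w1118/w+). How many other genes were separated in this way was not counted, so the gap does not show an effect of copies either.

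All 71 conditions of deficiency flies had more w than w1118 of their class, and in XX and XY heads all line means exceeded that of OreR. Means of the 19 X deficiency lines in XX heads lay between 176.3 (Df(1)ED6989) and 2657 (Df(1)ED6957), with a median of 534.1. Means of the 11 3L lines lay between 142.3 (Df(3L)ED210) and 5083 (Df(3L)ED4457), with a median of 432.5, in XX heads, and between 181.4 and 5497, for the same lines, with a median of 542.7, in XY heads. The lowest, Df(3L)ED210, had 115.4, 153.8 and 157.8 in its XX libraries, the first within the range of OreR XX, while the highest, Df(3L)ED4457, had 4394.0, 5414.2 and 5440.1.

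Set against OreR of the same class, line means of w were 1.54 to 23.2 times as high in X lines (XX, median 4.66), 1.24 to 44.4 times in 3L lines in XX heads (median 3.77) and 1.46 to 44.2 times in XY heads (median 4.36). In FPKM, which divides reads by length and by mapped reads, the medians were 4.03, 3.43 and 4.09. Every library exceeded every OreR library in 19 of 19 X lines in XX heads, 10 of 11 3L lines in XX heads and 11 of 11 3L lines in XY heads. Over all genes and lines this held for 18.9%, 16.6% and 15.8% of the cases. On average over lines, w was higher than in OreR by 2.09 ± 0.45 in X lines in XX heads (adjusted p = 0.000132, edgeR, 19.6% of genes called), by 2.39 ± 0.46 in 3L lines in XX heads (adjusted p = 1.82e-05, 19.7%) and by 2.22 ± 0.45 in 3L lines in XY heads (adjusted p = 5.1e-05, 19%), all on the log2 scale. Between X lines and 3L lines in XX heads w was at -0.29 ± 0.13, which did not pass (adjusted p = 0.0744, with 36.5% of genes called between them) but passed in a fit of the compared libraries only (adjusted p = 0.0228). The study set aside a further 3L line, Df(3L)ED4685, because it saw no dosage effect in the region and detected no deficiency in the stock. This line was compared with the other 3L lines in a fit of all libraries. There w was called lower in XX, XY and tra2 XX heads, where 2.6%, 1.72% and 0.349% of genes were called, and no other member was.

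**Figure D1:**
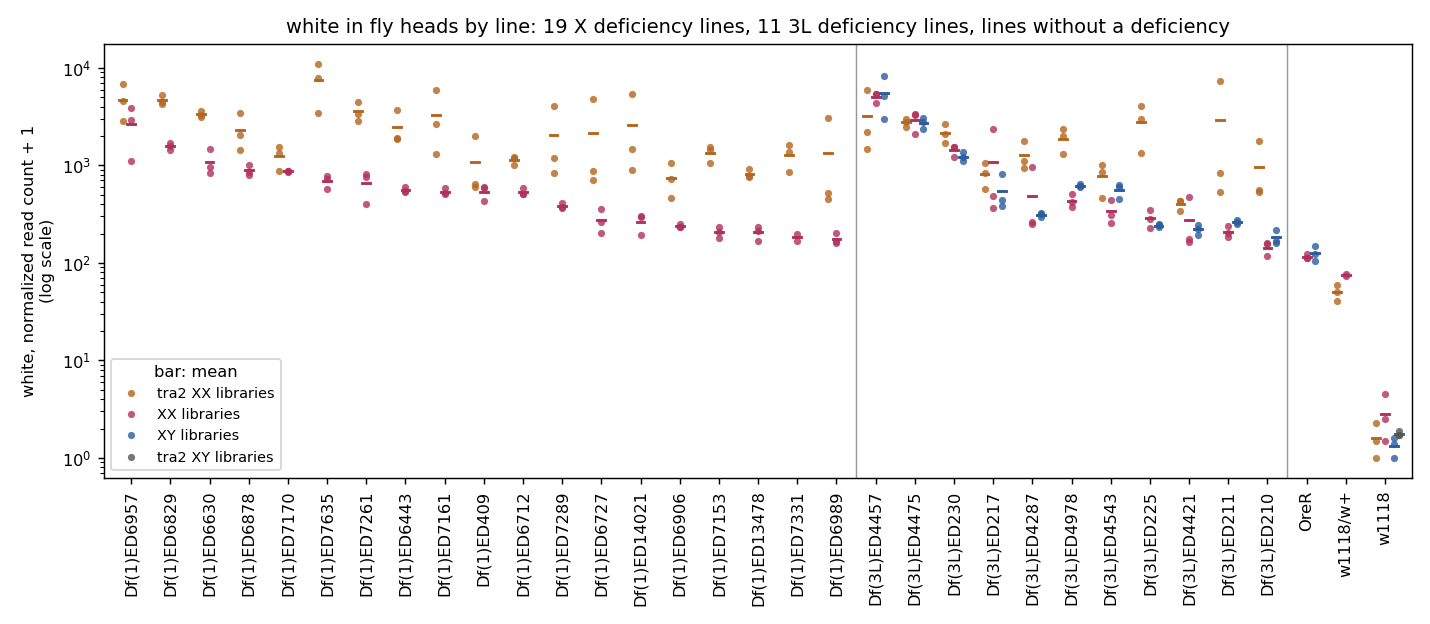
Normalized read count of w plus 1 (log scale) in each library of 30 deficiency lines and 3 kinds of flies with no deficiency, by class, with bars at the means. Deficiency lines lie above the 102.9 to 147.4 of OreR but for 1 library, spread over more than 1 order of magnitude, and w1118 lies near 0.

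The order of lines by w was largely shared by females and males. Over the 11 lines with both, the log2 means in XX and XY heads had r = 0.95 and rho = 0.9, and r = 0.85 without the 2 lines farthest from the median; the points share the stock, and no p is given. Df(3L)ED4457, Df(3L)ED4475 and Df(3L)ED230 were the highest in both classes, and Df(3L)ED210 the lowest. The ratio of XX to XY lay between 0.606 and 1.97 by line, with a median of 1.07 and 6 of 11 lines above 1. Neighbours in this order were often inseparable: the library ranges overlapped in 27 of 32 adjacent pairs in XX heads, in 28 of 31 in tra2 XX heads and in 5 of 12 in XY heads. The gaps in XX heads included Df(3L)ED4457 above Df(3L)ED4475, Df(1)ED6989 above Df(3L)ED210, OreR above w1118/w+, and w1118/w+ above w1118. Against the tra2 XX means the order was looser, with r = 0.5 and rho = 0.53 over 30 lines in XX heads (0.48 without the 2 farthest) and r = 0.51 and rho = 0.42 over 11 lines in XY heads.

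Heads of tra2 XX deficiency flies had more w than those of XX flies of the same lines. The line means in tra2 XX heads lay between 747.1 (Df(1)ED6906) and 7427 (Df(1)ED7635) for X lines, with a median of 2142, and between 398.1 (Df(3L)ED4421) and 3211 (Df(3L)ED4457) for 3L lines, with a median of 1875. The mean was higher in tra2 XX than in XX in 19 of 19 X lines, by 1.44 to 10.8 times (median 4.45), and in 8 of 11 3L lines, with ratios between 0.632 and 13.9 (median 2.31). Df(1)ED7635 had 3454.4, 7791.2 and 11035.2 in tra2 XX heads, the highest library of all, against a mean of 689.9 in its XX heads. The 3 exceptions, Df(3L)ED4457, Df(3L)ED4475 and Df(3L)ED217, were among the 4 3L lines with the most w in XX heads, Df(3L)ED217 through 1 library of 2355.5. The w1118/w+ flies, whose w+ allele sits at its own locus, had a ratio of 0.664.

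In the fit over lines, w was higher in tra2 XX than in XX heads by 1.84 ± 0.21 (adjusted p = 6.25e-11, edgeR) and higher than in XY heads by 1.79 ± 0.31 (adjusted p = 2.23e-06), but 72.5% and 70.9% of all genes were called in these 2 comparisons. The difference in w between XX and XY heads did not pass (-0.05 ± 0.28, adjusted p = 0.898), where 50.5% of genes were called. The test of the difference itself set the tra2 XX over XX change of X lines above that of w1118/w+ by 2.69 ± 0.61 (adjusted p = 0.00283, 1.89% of genes called), that of 3L lines above w1118/w+ by 1.94 ± 0.61 (adjusted p = 0.0477, 3.94%) and that of X lines above 3L lines by 0.75 ± 0.19 (adjusted p = 0.000734, 40.9%). The w+ chromosome of the w1118/w+ flies came from different stocks in XX and tra2 XX, and this group had 2 and 3 libraries. All tests of X lines against 3L lines rest on the spread between pools of a condition. The spread between lines does not enter their errors, so they describe these lines and not kinds of line in general. Within tra2 XX heads, X lines exceeded 3L lines in w by 0.46 (adjusted p = 0.00571, 32.2% of genes called). That call was lost without replicate 1 (0.06, adjusted p = 0.936) and without replicate 2 (0.34, adjusted p = 0.16), while without replicate 3 the difference was 0.97.

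**Figure D2:**
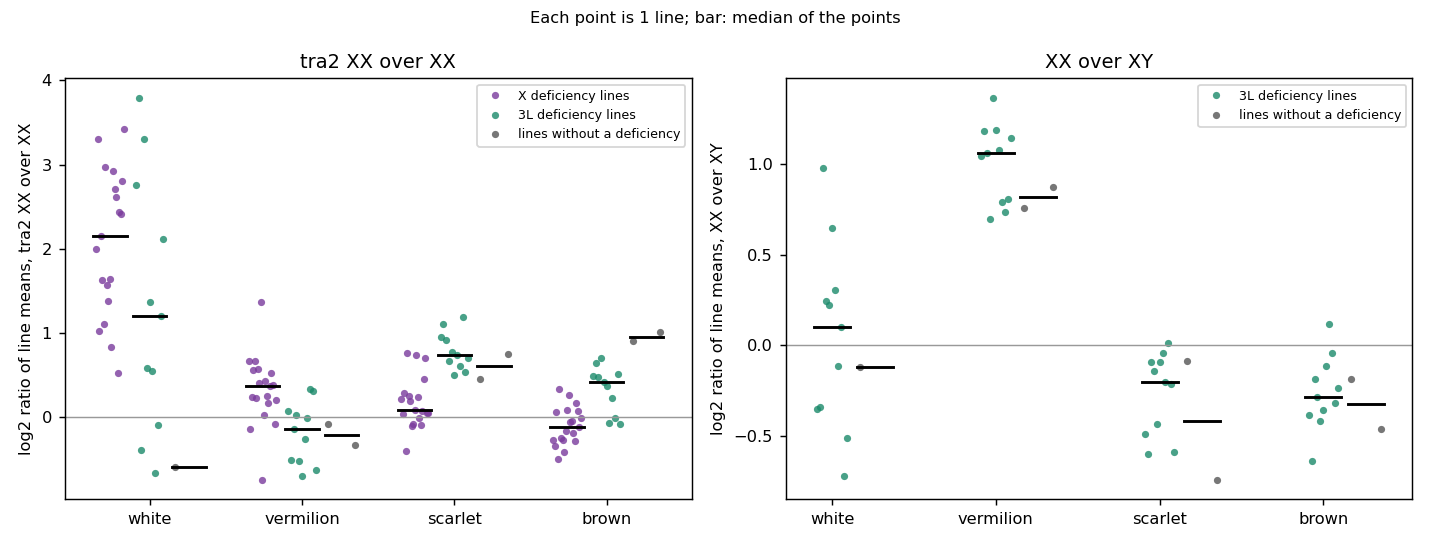
Log2 ratio of line means, tra2 XX over XX (left) and XX over XY (right), for w, v, st and bw, with 1 point a line and bars at the medians. All 19 X lines lie above 0 for w in the left panel, and all 13 lines lie above 0 for v in the right panel.

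Replicates of 1 condition differed in w far more in tra2 XX heads than in the other classes. The highest library had over 2 times the lowest in 22 of 71 deficiency conditions, 15 of them among the 30 tra2 XX conditions, and over 5 times in 5. The coefficient of variation of w within a condition had a median of 38.0% in tra2 XX heads, above that of 93.6% of 9307 genes, and of 15.0% in XX and 11.8% in XY heads. In Df(3L)ED211 tra2 XX the 3 libraries had 529.7, 839.8 and 7307.3 of w. In Df(3L)ED217 XX they had 488.1, 2355.5 and 365.6, and in Df(1)ED6727 tra2 XX 4848.4, 710.6 and 867.8. One library thus set the mean of each of these lines.

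Heat shock genes moved with w among replicates. Hsp23, a small heat shock protein gene, had 121.0, 169.6 and 5814.7 in the same Df(3L)ED211 libraries, 81.8, 641.6 and 62.1 in those of Df(3L)ED217, and 1404.8, 157.5 and 196.6 in those of Df(1)ED6727, the highest library being the same as for w each time. Over 212 deficiency libraries, each taken as a log2 deviation from its condition's mean, Hsp23 had the highest correlation with w of 9306 genes (r = 0.84, rho = 0.7, and 0.82 without the 2 farthest libraries). By class, r was 0.95 for tra2 XX libraries, 0.73 for XX libraries and 0.05 for XY libraries. The co-chaperone gene starvin (stv) had r = 0.83, Hsp68 0.72 and Hsp83 0.67 over all classes, and 0.6, 0.32 and 0.45 for XY libraries. Over all classes r was -0.01 for v, -0.09 for st and 0.02 for bw. These values are a description of libraries that share a stock and a preparation, chosen after they were seen for Hsp23 and stv, with no p.

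Heat shock transcripts were also higher in tra2 XX heads as a class: Hsp68, an inducible Hsp70 relative, had a median of condition means of 4567 in X lines and 3337 in 3L lines in tra2 XX heads, against 165.5 and 211.7 in XX heads and 126.9 in 3L lines in XY heads. In flies without a marker, libraries with more of these transcripts did not have more w in OreR XX and did in OreR XY heads. OreR XX replicate 1 had 240.5 of Hsp23 and 110.4 of w, while replicates 2 and 3 had 41.4 and 41.9 of Hsp23 and 110.3 and 123.2 of w. OreR XY replicate 2 had 303.0 of Hsp23 and 147.4 of w, while replicates 1 and 3 had 64.6 and 66.1 of Hsp23 and 102.9 and 122.8 of w. The w1118/w+ tra2 XX libraries had 1040.3, 1033.9 and 1406.0 of Hsp23 with only 58.8, 49.1 and 39.8 of w. The part of heat shock gene activity in the class difference of w was not tested.

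**Figure D3:**
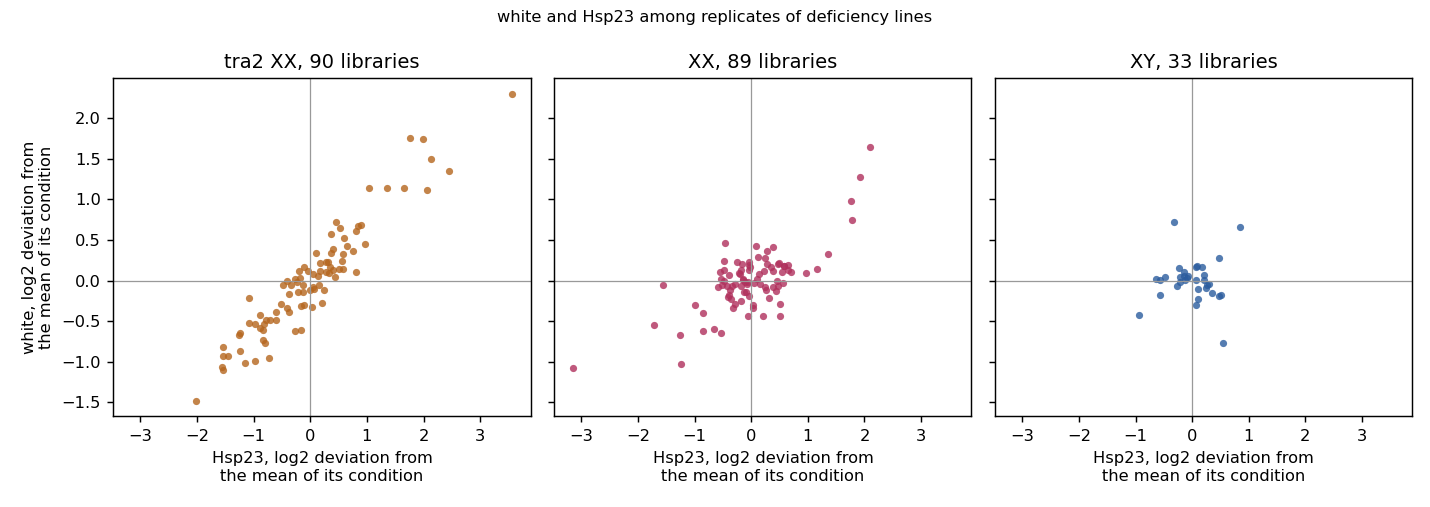
Deviation of w (y axis) against that of Hsp23 (x axis), each in log2 from the mean of its condition, for the deficiency libraries of each class. Points run along a line in tra2 XX (r = 0.95), less tightly in XX (r = 0.73) and not in XY heads (r = 0.05).

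The partner of White for pteridine precursors, bw, was about 2 times as high in deficiency heads as in heads with no deficiency, in females and in males. In XX heads the X lines averaged 334.5 (283.8 to 424.2 by line) and the 3L lines 289.7 (216.6 to 361.5), against 139.6, 163.8 and 146.1 in OreR, 163.2 and 174.5 in w1118/w+, and 131.3, 125.7 and 149.5 in w1118. In XY heads the 3L lines averaged 346.5 (264.2 to 414.8), against 156.5, 178.7 and 175.4 in OreR and 203.9, 206.3 and 149.9 in w1118. Every library of every line lay above all of OreR in these classes, in 19 of 19 X lines, 11 of 11 3L lines (XX) and 11 of 11 (XY), where 18.9%, 16.6% and 15.8% of all genes in lines did. Hemocyte markers moved with this comparison: the summed level of 3 markers had a median of 2007 in X lines (865.7 to 3312) and 1922 in 3L lines (861.8 to 3504) in XX heads, against 801.5 (515.0 to 1846) in XX heads with no deficiency. In XY heads it had a median of 1333 (391.4 to 1878) in 3L lines, against 697.8 (465.7 to 985.5) with no deficiency. This sum follows mainly Hml, with a median of 1264.75 over all libraries, against 264.78 for NimC1 and 4.31 for He. Of these 3 markers 2 were called higher over w1118 in XX heads in both kinds of line, as were 3 of 4 glia markers. In X lines 21.4% and in 3L lines 17.1% of all genes were called there in either direction. The part of these cell types in bw and st was not tested.

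Over w1118, bw was higher in XX heads by 1.30 ± 0.14 in X lines (adjusted p = 1.63e-14, edgeR) and by 1.09 ± 0.14 in 3L lines (adjusted p = 7.26e-11), and in XY heads by 0.87 ± 0.13 in 3L lines (adjusted p = 1.4e-07). Over OreR the differences were 1.14, 0.93 and 1.01, with adjusted p = 2.57e-12, 9.7e-09 and 1.89e-10. In these 3 classes 21.4%, 17.1% and 15.7% of genes were called over w1118. In FPKM (limma on log2 of FPKM + 1) the excess over w1118 was 0.66 in X lines (XX), 0.55 in 3L lines (XX) and 0.42 in 3L lines (XY, adjusted p = 0.0652). On that scale the median of all genes over w1118 was itself at -0.11, -0.17 and -0.05, whereas over OreR it lay between 0.00 and 0.04.

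In tra2 XX heads the groups overlapped, and flies with no deficiency had more bw than in XX heads. The X lines averaged 311.8 and the 3L lines 363.9, against 343.0, 328.9 and 350.6 in w1118/w+ and 260.1, 218.6 and 282.6 in w1118. The excess over w1118 was 0.30 ± 0.12 in X lines (adjusted p = 0.0609) and 0.53 in 3L lines (adjusted p = 0.0005), where 22.8% and 32.4% of genes were called. In FPKM neither was positive (-0.14 for 3L lines, where the median of all genes was at -0.35, and -0.23 for X lines on log2 of FPKM + 0.1, where it was at -0.36). The excess of X lines over w1118 was larger in XX than in tra2 XX heads by 1.00 ± 0.17 (adjusted p = 1.85e-05, 2.14% of genes called). The tra2B chromosome carries bw1, and whether its transcript counts for bw was not tested.

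The partner for ommochrome precursors, st, was also higher in deficiency heads than in w1118 in XX and tra2 XX heads. In XX heads the X lines averaged 116.5 (79.1 to 173.8 by line) and the 3L lines 93.8 (76.0 to 121.8), against 67.9, 57.6 and 65.6 in OreR, 68.8 and 62.9 in w1118/w+, and 46.1, 46.8 and 60.8 in w1118. In tra2 XX heads they averaged 130.8 and 164.2, against 95.9, 113.4 and 123.6 in w1118/w+ and 79.9, 56.3 and 75.1 in w1118. In XY heads the 3L lines averaged 111.6, against 62.1, 75.5 and 65.7 in OreR and 89.0, 86.4 and 81.8 in w1118. The highest line was Df(3L)ED4475 in tra2 XX heads (277.6), of which 1 library had 498.4.

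Over w1118, st was higher by 1.16 ± 0.18 in X lines in XX heads (adjusted p = 1.18e-07, edgeR), 0.86 ± 0.18 in 3L lines in XX heads (adjusted p = 0.00012), 0.89 ± 0.18 in X lines in tra2 XX heads (adjusted p = 4.9e-05) and 1.17 in 3L lines in tra2 XX heads (adjusted p = 9.99e-08). In XY heads the difference over w1118 did not pass (0.37, adjusted p = 0.124), though that over OreR did (0.71, adjusted p = 0.000951). Over OreR in XX heads it was 0.84 in X lines (adjusted p = 0.000135) and 0.54 in 3L lines (adjusted p = 0.0213). The last call was lost in 6 of 14 alternative settings, with adjusted p up to 0.227.

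Tested line by line over the 3 w1118 libraries of the class, which all lines share, bw was called higher in XX heads in 19 of 19 X lines and 11 of 11 3L lines, and st in 18 of 19 and 9 of 11, where 7.85% of all tests of a gene in a line were called higher. In tra2 XX heads bw was called higher in 5 of 19 and 9 of 11 and st in 15 of 19 and 11 of 11, where 6.39% were. In XY heads bw was called higher in 10 of 11 3L lines, st in 0 of 11 and v in 1 of 11, where 3.72% were. The counts for bw and st in tra2 XX heads depended on single replicates: without w1118 tra2 XX replicate 2 they were 4 of 30 for bw and 17 of 30 for st, against 14 and 26 with it. Without replicate 2 of every condition st was called higher in 11 of 30 lines in XX heads, against 27, and on log2 of FPKM + 1 bw was called in 15 of 30, against 30.

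**Figure D4:**
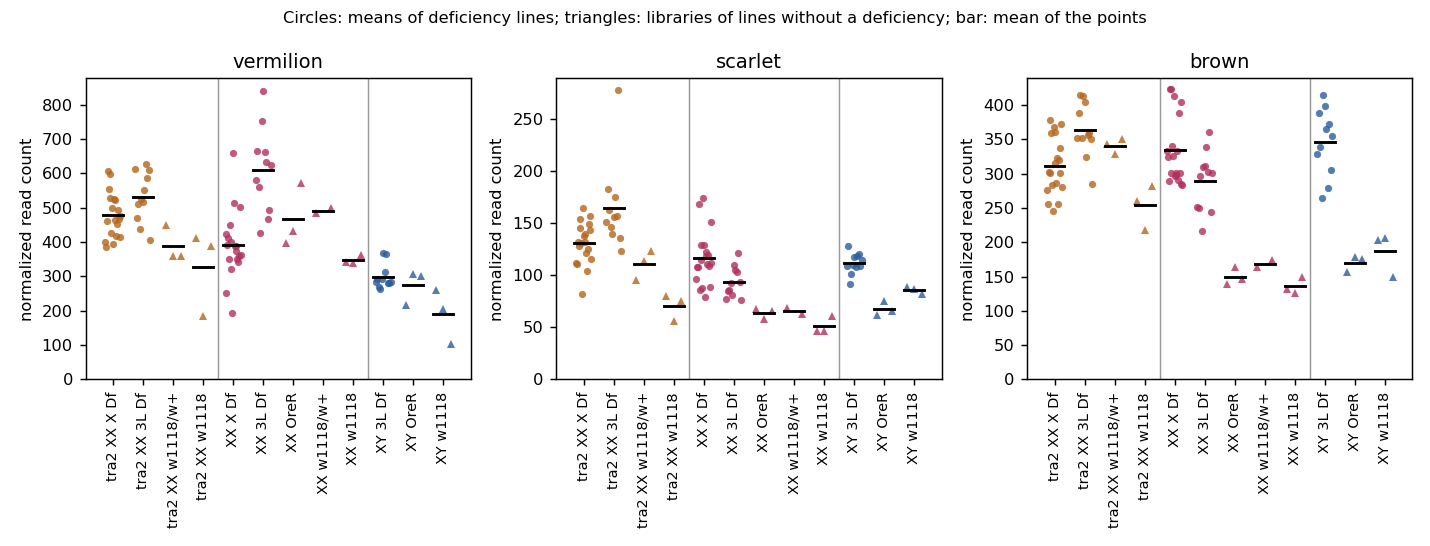
Normalized read counts of v, st and bw by class, with line means of deficiency flies as circles, libraries of flies with no deficiency as triangles, and bars at the means. In XX and XY heads every line mean of bw lies above every triangle, at 216.6 or more against at most 206.3. The bars of v are lowest in XY heads, though line means reach down to 192.7 in XX heads.

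Between flies with no deficiency, none of v, st and bw was called. OreR over w1118 called 7.79% of genes in XX and 7.01% in XY heads, and w1118/w+ over w1118 called 2.35% in XX and 1.47% in tra2 XX heads, in each case w alone among the 4 members tested. The values nearest to a difference were those of w1118/w+ over w1118 in tra2 XX heads, 0.66 for st (adjusted p = 0.164) and 0.43 for bw (adjusted p = 0.29). Photoreceptor markers moved with that comparison: the summed level of all 9 markers lay between 424400 and 441100 in w1118/w+ tra2 XX heads, against 170800 to 261700 in w1118 tra2 XX heads. In deficiency lines it had medians of 380300 (X lines) and 406800 (3L lines) in tra2 XX heads. The summed level of the 5 pigment and cone cell markers lay between 10870 and 12570 in OreR XX heads and 10820 and 11480 in w1118/w+ XX heads, against 6927 to 7711 in w1118 XX heads. Each sum follows mainly its most abundant genes. Among photoreceptor markers the median over all libraries was 172555.75 for ninaE, the next being 57031.53 for Arr2. Among pigment and cone cell markers it was 10559.84 for Pdh, the next being 673.11 for prom. The sums thus do not measure the amount of these cells. The part of cell makeup in the comparisons with w1118 was not tested.

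The entry enzyme gene of the ommochrome pathway, v, was higher in XX than in XY heads in every line that had both. The 3L lines averaged 609.3 (427.1 to 839.4 by line) in XX heads, against 298.8 (262.8 to 368.3) in XY heads, and 532.2 in tra2 XX heads. OreR had 398.1, 432.2 and 570.3 in XX heads, against 217.7, 307.7 and 302.3 in XY heads, and w1118 341.7, 337.5 and 361.0 in XX heads, against 259.7, 204.2 and 103.0 in XY heads. The mean was higher in XX than in XY heads in 13 of 13 lines, by 1.63 to 2.58 times (median 2.06), and in tra2 XX than in XY heads in 12 of 12, by 1.4 to 2.17 times. In the fits over lines, v was higher in XX than in XY heads by 0.84 ± 0.10 (adjusted p = 3.01e-09, edgeR) and in tra2 XX than in XY heads by 1.05 ± 0.11 (adjusted p = 1.1e-11). There 50.5% and 70.9% of all genes were called. How many other genes were higher or lower in every line was not counted, so the difference is not shown to be particular to v. The tra2 XY heads of w1118, with 1 X chromosome, had 425.5, 235.2 and 195.5, not called against w1118 XY heads, where 3.93% of genes were. The fat body is a tissue in which v is also active. The summed level of 7 of its markers had a median of 829500 in the XX heads of 3L lines. It was 35410 in their XY heads and 62330 in their tra2 XX heads. These markers include the yolk protein genes Yp1, Yp2 and Yp3, which the study names as regulated downstream of tra2. The sum thus does not measure the amount of fat body, and the part of this tissue in v was not tested.

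Tests of X lines against 3L lines in this paragraph rest on the spread between pools, not between lines. Between tra2 XX and XX heads v differed between the kinds of line. It was higher by 0.45 in X lines fitted alone (adjusted p = 0.00026) and was at -0.15 in 3L lines (adjusted p = 0.0878), with 0.21 ± 0.07 over all lines (adjusted p = 0.00871) and a difference of 0.51 between the kinds (adjusted p = 0.000369). The same fits gave bw -0.07 in X lines (adjusted p = 0.291) and 0.37 in 3L lines (adjusted p = 8.96e-06), with 0.15 over all (adjusted p = 0.0146), and st 0.22 and 0.76 (adjusted p = 0.0124 and 1.55e-11), with 0.44 over all (adjusted p = 1.01e-08). Over all lines 72.5% of all genes were called, and 40.9% in the test of the difference between the kinds. In XX heads X lines were below 3L lines in v by -0.66 (adjusted p = 1.8e-10) and above them in st by 0.30 (adjusted p = 3.59e-05) and in bw by 0.22 (adjusted p = 5.09e-05). In tra2 XX heads they were below in st by -0.29 (adjusted p = 0.000132) and in bw by -0.23 (adjusted p = 3.57e-05). On log2 of FPKM + 1 these calls were lost for bw in XX heads (0.12, adjusted p = 0.11) and for st and bw in tra2 XX heads (-0.13 and -0.07, adjusted p = 0.0574 and 0.362). Between X and 3L lines 36.5% of all genes were called in XX heads and 32.2% in tra2 XX heads. The highest v in X lines was 660.3 in Df(1)ED6906 XX and the lowest 192.7 in Df(1)ED6878 XX, and over w1118 v was called in X lines in neither class (0.14 and 0.54, adjusted p = 0.737 and 0.0952). Over w1118 in 3L lines it was 0.79 in XX (adjusted p = 0.0175) and 0.69 in tra2 XX heads (adjusted p = 0.0261), but the first passed in only 6 and the second in 10 of 14 alternative settings. On log2 of FPKM + 1 the second was 0.29 (adjusted p = 0.232). In 3L lines over w1118, 17.1% of all genes were called in XX heads and 32.4% in tra2 XX heads.

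The gene cn was barely detected in any head and was not tested. It had no read in 66 of 97 XX libraries, in 34 of 96 tra2 XX libraries and in 23 of 39 XY libraries, and its highest normalized read count was 5.67. Over all libraries of a class there were 45 reads in XX heads, or a CPM of 0.0541 (95% exact interval 0.0394 to 0.0723), 127 in tra2 XX heads, or a CPM of 0.224 (0.187 to 0.266), and 38 in XY heads, or a CPM of 0.1 (0.071 to 0.138). OreR XX, with no cn mutation in its labels, had 2 reads in 3 libraries. Heads of w1118/w+ tra2 XX had 15 reads, against 0 in w1118/w+ XX, which allows a CPM of up to 0.136.

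Per length, v was the most abundant member in wild-type heads and in deficiency heads the order of w and v depended on the class. In OreR XX heads the mean FPKM was 43.9 ± 10.1 for v, 9.07 ± 0.899 for bw, 6.60 ± 0.776 for w and 4.21 ± 0.230 for st (SD, n = 3), and 0.157 for cn. In XX heads the median FPKM over libraries was 27.4 for w and 35.0 for v in X lines, and 21.9 for w and 57.6 for v in 3L lines. It was 85.5 for w and 42.7 for v in tra2 XX heads of X lines, 54.1 for w and 42.5 for v in those of 3L lines, and in XY heads of 3L lines 26.7 for w and 30.8 for v. Over all deficiency libraries it was 16.1 for bw, 8.05 for st and 0.0803 for cn.

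Of the ommochrome genes, cd was lowest in w1118 among flies with no deficiency. It had 49.1, 31.6 and 37.1 normalized read counts in OreR XX heads and 50.0 and 44.8 in w1118/w+ XX heads, against 23.1, 21.2 and 8.9 in w1118 XX heads. In tra2 XX heads it had 57.4, 69.0 and 58.7 in w1118/w+, against 27.3, 27.1 and 33.9 in w1118, and in XY heads 30.6, 34.1 and 31.2 in OreR, against 17.2, 9.9 and 8.0 in w1118. Over w1118 it was higher by 1.47 in X lines in XX heads (adjusted p = 7.44e-08, edgeR), by 1.08 and 1.91 in 3L lines in XX and XY heads (adjusted p = 0.000109 and 3.4e-10) and by 1.13 in OreR XX (adjusted p = 0.00288), and was called over OreR in neither kind of line (0.34 in X lines in XX heads, adjusted p = 0.272, -0.05 and 0.47 in 3L lines in XX and XY heads, adjusted p = 0.92 and 0.0969). Single deficiency libraries reached down to 20.3 in X lines and 19.8 in 3L lines in XX heads, within the range of w1118. Among the 4 genes of the ommochrome list tested (v, cd, st and w) 3 were higher in X lines and 4 in 3L lines over w1118 in XX heads, and 2 in 3L lines in XY heads, where 21.4%, 17.1% and 15.7% of all genes were called. None was lower. The list medians were 1.32, 0.97 and 1.27, beside medians near 0 over all genes. On this list w differed by design, and v and st are members given above. Only cd adds to them, so these counts and medians do not describe the pathway apart from the members.

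A gene of the granule group, lightoid (ltd), whose product is a Rab GTPase of pigment granules, behaved as cd did. It had 2823.4, 2687.1 and 2777.2 in OreR XX heads and 2782.1 and 2536.9 in w1118/w+ XX heads, against 1555.9, 1477.3 and 1458.6 in w1118 XX heads. Its lowest library among deficiency lines was 1982.8 in X lines and 2076.3 in 3L lines in XX heads, above all w1118 XX libraries. The share of all genes separated from w1118 in this way was not counted. In tra2 XX heads the ranges overlapped. The lowest library was 1959.1 in X lines and 2107.7 in 3L lines, against 1939.8 to 2279.1 in w1118. There w1118/w+ averaged 3502, above the averages of X lines (2836) and 3L lines (2847). The difference over w1118 was 0.95 ± 0.11 in X lines in XX heads (adjusted p = 9.93e-13), 0.89 ± 0.14 in OreR XX (adjusted p = 7.92e-08) and 0.73 ± 0.14 in w1118/w+ tra2 XX (adjusted p = 6.45e-05). Of the 14 granule genes tested, 2 were higher and 1 lower in X lines over w1118 in XX heads, with light (lt), a subunit of a vesicle tethering complex, at -0.55 and ruby (rb), an adaptor subunit, at 0.51. The median over the 14 was 0.01, as over all genes, of which 21.4% were called.

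Of 13 genes tested on the pteridine list, 6 were higher and 0 lower in X lines over w1118 in XX heads. In 3L lines 4 were higher and 1 lower. The higher genes include w, bw and r in both kinds of line. Among them w differed by design and bw is a member given above, so neither adds to the earlier results. In these comparisons 21.4% and 17.1% of all genes were called in either direction. Henna (Hn), which encodes phenylalanine hydroxylase, was higher by 1.22 in X lines (adjusted p = 1.02e-05) and by 1.44 in 3L lines (adjusted p = 5.03e-07). It had medians of 3547.8 in X lines and 4219.6 in 3L lines, against 1825.6, 1716.3 and 1175.0 in w1118 XX heads. The gene r, which is on the list although its product acts in pyrimidine synthesis, was higher by 1.27 (adjusted p = 1.35e-05) and 0.89 (adjusted p = 0.003). In 3L lines in XY heads 6 were higher and 1 lower, sepia (se), a pteridine enzyme gene, at -0.81 (adjusted p = 0.00126), where 15.7% of all genes were called. The list medians were 0.29, 0.24 and -0.01.

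Of 15 ABCG transporter genes tested, 5 were higher in X lines and 7 in 3L lines over w1118 in XX heads, and 9 in 3L lines in XY heads, with none lower, where 21.4%, 17.1% and 15.7% of all genes were called in either direction. The 3 pigment transporters were called in XX heads, and w and bw in XY heads. These are members given above, and w differed by design, so their calls add nothing to the earlier results. Others were CG32091, at 0.85 in X lines in XX heads (adjusted p = 6.17e-08), and CG5853, at 1.40 in XY heads (adjusted p = 0.000267). The list medians were 0.13, 0.41 and 0.55. Besides w, which was higher in OreR, CG9664 was called between OreR and w1118 and was lower in OreR. It had 71.7, 92.4 and 98.7 in OreR XX heads, against 303.1, 403.6 and 332.0 in w1118 XX heads (-1.97, adjusted p = 1.76e-14).

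Over the means of 79 conditions, the genes most like each member were described by Spearman's rho among genes with a median over 6. For w these were ken (0.66), cact (0.65) and CG7218 (0.63), for v NimB5 and Elal (0.88 each) and CG7560 (0.84), for st FBgn0031821 (0.87), Cyp9f2 and CG2767 (0.86 each), and for bw CG2767 and st (0.67 each) and rdhB (0.65). Between members, st and bw had 0.67, w and st 0.45, w and v 0.31, v and st 0.28, w and bw 0.27 and v and bw 0.08. The conditions share stocks, size factors and w1118 background, and no p is given.

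A deficiency lowers the genes it removes, so the 10 expressed genes nearest to each member were compared with the other libraries of the class. Their median log2 ratio was below -0.5 around w in Df(1)ED6630, at -0.642 in XX and -0.932 in tra2 XX heads, and in Df(1)ED6906 in XX heads alone, at -0.564 against 0.068 in its tra2 XX heads. It was below -0.5 in no line around v, st, bw or cn. The log2 ratio of w itself was 1.479 and 1.288 in XX and tra2 XX heads of Df(1)ED6630, and -0.837 and -0.971 in those of Df(1)ED6906.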

How the data were processed

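Head RNA of adult flies was sequenced as poly-A selected libraries. Per the labels and methods, the authors used CASAVA 1.8.2, aligned reads with TopHat 2.0.10 keeping unique alignments, counted reads per gene of FlyBase release 5 with HTSeq 0.5.4p1, and deposited these raw counts. They also deposited normalized read counts, a signal obtained by dividing counts by DESeq2 1.6.3 size factors, and FPKM from Cufflinks 2.1.1, each for 249 and for 235 libraries. Rows that name no gene held 7.12% and spike-ins 1.19% of reads and were left out. The 14 libraries left out by the authors entered only the comparisons of Df(3L)ED4685 and values in the closing section. No column lacked a sample. Every group came from the labels.

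Raw counts were tested with edgeR 4.0.16 (TMM, filterByExpr, quasi-likelihood F test) in R 4.3.3, in 1 fit of the 235 libraries by condition with the mean over lines as contrast (11149 genes). The comparisons of classes used 1 fit of lines and classes (10479 genes), and the left-out line a fit of 249 libraries (11749 genes). The standard error was taken as the fold change over the square root of F. cn did not pass the filter. Levels and figures used normalized read counts, ratios to w1118 used pooled reads with Clopper-Pearson intervals (95%, counting error only), and FPKM was tested with limma 3.58.1 on log2(FPKM + 1). Alternatives were DESeq2 1.42.0, other size factors, filters, sample sets, a pseudocount of 0.1, a replicate block and leaving out each replicate. The code was tested on simulated data. Gene names and the order of genes came from an annotation of BDGP6, which matched 16815 of 17142 IDs. That is a later release than the one of the files, so no coordinates are given.

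The members and gene lists were chosen with earlier results of these data known. From the lists of pathways, ABCG transporters and granule genes, counts and up to 4 called genes with the largest fold change per comparison were named, and the 3 genes most like each member. Levels of such genes and the comparison of adjacent lines were added after their values were seen, as were the heat shock list, the comparisons with OreR over lines, the differences between comparisons and the fits by kind of line. Marker lists of cell types served to check the tissue and are given beside the results they moved with.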

Additional observations from a re-analysis of the deposited data

Results flagged for a closer look

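The change of w from XX to tra2 XX heads differed between kinds of flies by a test of the difference itself. On the log2 scale the change was larger in X deficiency lines than in w1118/w+ by 2.69, larger in 3L lines than in w1118/w+ by 1.94, and larger in X lines than in 3L lines by 0.75. In 27 of the 30 lines w had its higher mean in tra2 XX heads. The same tests for bw gave -1.09 in X lines and -0.65 in 3L lines against w1118/w+, and -0.44 between X and 3L lines. For v and st the difference between X and 3L lines was 0.51 and -0.59. The excess of bw in X lines over w1118 was 1.00 larger in XX than in tra2 XX heads. In the tests between X and 3L lines 40.9% of all genes were called. The share was 1.89% for X lines and 3.94% for 3L lines against w1118/w+, and 2.14% for the excess over w1118. The 2 differences against w1118/w+ share its 5 libraries. The tests between X and 3L lines rest on the spread between pools of a condition, not on that between lines.

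Libraries that the study left out of its analysis also had w, far above w1118. The study detected no deficiency in the source stock of Df(3L)ED4685. On the scale of the 249 libraries, this line had means of 135.2 in XX heads, 174.0 in tra2 XX heads and 142.8 in XY heads. This was the lowest mean of the 12 3L lines in each class, the next being 142.1 and 180.9 in Df(3L)ED210 in XX and XY heads and 397.1 in Df(3L)ED4421 in tra2 XX heads. Against the other 3L lines w was at -2.18 ± 0.45 in XX heads (adjusted p = 0.000435, edgeR, 2.6% of genes called), -3.13 ± 0.49 in tra2 XX heads (adjusted p = 5.94e-06, 0.349%) and -2.03 ± 0.44 in XY heads (adjusted p = 0.00106, 1.72%). The call in XX heads was lost without replicate 2. The tra2 XX libraries of Df(1)ED7147 averaged 500.0, with 921.1, 277.1 and 301.7. The single XX libraries of Df(1)ED7225 and Df(1)ED7374 had 422.7 and 352.8.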

How the results depend on the processing

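Of 1179 alternative values for single members, 1119 kept their direction and their side of the threshold, 39 lost a call, 17 gained one and 4 reversed. For w over OreR every alternative kept the call, and w over XX heads in tra2 XX heads lay between 1.53 and 2.14. The reversals were bw in 3L lines over w1118 in tra2 XX heads with limma (-0.14 on log2 of FPKM + 1 and -0.15 with 0.1), bw in tra2 XX over XX heads in X lines alone (-0.07) and v in 3L lines alone (-0.15), the last 2 added after the data were seen; the cause was not tested. Numbers of members called changed as follows. Fits of the compared libraries only called 2 instead of 1 for w1118/w+ over w1118 in XX heads and 4 instead of 2 for X lines over w1118 in tra2 XX heads, and the fit of libraries without a deficiency called 2 instead of 1 for w1118/w+ in tra2 XX heads. With limma that count was 0, with 2 instead of 4 for 3L lines in tra2 XX heads, 1 instead of 2 for 3L lines in XY heads and 1 instead of 3 for X over 3L lines in tra2 XX heads. For XX over XY heads 3 were called with the mean over lines, 3 in 3L lines alone and 2 with the replicate block, instead of 1. Leaving out 1 replicate gave 2 to 4 for 3L lines and 1 to 3 for X over 3L lines in tra2 XX heads, 0 to 1 for Df(3L)ED4685 over other lines in XX heads and 1 to 2 over w1118 in XY heads.

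Counts of lines called higher over w1118 moved most. In XX heads v had 5, with no filter 3, compared libraries only 10, limma 1, and 1 to 5 leaving out a replicate; st 27, and 11 to 27; bw 30, with limma 15. In tra2 XX heads v had 4, with no filter 2, limma 0, and 0 to 4; st 26, with limma 14, and 6 to 26; bw 14, with no filter 8, limma 0, and 1 to 12. In XY heads v had 1, with DESeq2 2, no filter 0, compared libraries only 0, and 0 to 2; st 0, compared libraries only 1; bw 10, compared libraries only 6, limma 1, and 4 to 10. Taken over all pairs, libraries with the same replicate number deviated together no more than others (median r 0.003 over 9088 pairs, against -0.002 over 18174). This pooled check cannot show effects of a replicate number that run opposite ways in different groups, and those were not tested. The replicate block changed no other count past 1.5 times. Line by line tests were not run with the block. The few reads of cn limit what can be said of it, and 2 to 10 reads in w1118 limit ratios of w.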
